A study of Mus musculus with 6 samples.

Results

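The hyaluronan genes described here are 10 mouse genes named for their part in making, binding or breaking down hyaluronan. Their choice was by symbol, with earlier results of these data known. They are the synthases Has1, Has2 and Has3, the precursor enzyme Ugdh, the receptors Cd44 and Hmmr, the secreted binding protein Tnfaip6, the hyaluronidases Hyal1 and Hyal2, and Cemip. All 10 were found once each among the 55364 genes listed in the count tables. The tables hold RNA of primary mouse lung fibroblasts (LFs) from 8 to 10-week-old C57Bl6/J mice at passage 2 to 3, in 3 wt libraries and 3 libraries whose labels call them TKS5 knockouts. The study's methods describe the second genotype as Tks5+/- (1 disrupted Sh3pxd2a allele, tm1b or tm1d, made with Cre under the CMV promoter and so meant for all tissues; which of the alleles these LFs carried is not given in the sources used here), from littermates of the wt mice, and it is called "labelled Tks5+/-" here. Both genotypes were serum-starved and exposed to 10 ng/ml TGFβ for 24 h, so no library without TGFβ enters the comparison. The sources used here do not say whether the 3 libraries of a genotype came from separate mice, and p-values measure the spread between these libraries only.

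Hyaluronan is a long, unsulphated glycosaminoglycan of the extracellular matrix (ECM). The Has enzymes sit in the plasma membrane and join UDP-glucuronate to UDP-N-acetylglucosamine in turn, extruding the chain as it grows, and Ugdh makes the UDP-glucuronate by oxidising UDP-glucose. Outside the cell, chains are held by CD44 and by link-module proteins such as the Tnfaip6 product, cut by Hyal2 at the cell surface or with the help of Cemip, and finished in lysosomes by Hyal1 and exoglycosidases. In fibrotic lung, hyaluronan made by fibroblasts is known as a component of the provisional matrix.

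The libraries held 1344507 to 2369882 counts. Quant-Seq places its reads at transcript ends, so that a count follows the number of transcripts, and the levels below are CPM, library-size scaled counts after TMM normalization. With edgeR's quasi-likelihood test, 4642 of 10346 tested genes (44.9%) passed both thresholds (adjusted p below 0.05, at least 1.2-fold either way) and are named called here, 22.8% of the tested genes being higher and 22.1% lower with the label Tks5+/-. Scaled by library totals alone, calls numbered 1362 higher and 3944 lower and the median over all genes, in log2 fold change, moved from -0.046 to -0.47. Sh3pxd2a, the targeted gene, had 190 to 284 counts in wt libraries and 238 to 260 in those labelled Tks5+/-, or 0.29 in log2 fold change (standard error, SE, 0.20, adjusted p = 0.249, though 1.00 with adjusted p = 5.19e-04 when corrected for transcript length and -0.13 with library totals alone). Whether the disrupted allele still gives reads at the transcript end, where Quant-Seq counts, was not tested. The counts of Sh3pxd2a therefore do not check the labels, on which each direction below rests. By Q-RT-PCR, the study reported less Tks5 mRNA in Tks5+/- LFs than in wt LFs. Whether the sequenced RNA was among the samples so measured is not given in the sources used here. The 12 fibroblast markers chosen for the check were all tested (5 higher, 2 lower) and summed to 14169 to 15913 CPM in wt and to 17518 to 19779 CPM in the libraries labelled Tks5+/-. The largest part of each sum was S100a4 (8216 to 10764 CPM in wt and 8304 to 13110 in the others), which was not called (adjusted p = 0.250). Col1a1 was not called either (adjusted p = 0.13), while Vim was higher (1.27 in log2 fold change, adjusted p = 5.60e-05).

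Of the 10 hyaluronan genes, 6 had enough counts for the test. Ugdh and Has2, which supply a precursor and polymerise it, were higher in the libraries labelled Tks5+/-, by 3.25-fold and 2.15-fold. None was called lower. Cd44, Cemip, Hyal2 and Tnfaip6 were not called. The 2 genes called higher of 6 tested stand beside 22.8% of all genes tested, and the median log2 fold change of the 6 was 0.86 beside -0.046 over all genes. With so few tested members, nothing particular to the family is read from these counts. In bulk RNA, a change in the number of cells of one kind and a change in RNA per cell cannot be told apart.

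**Figure D1:**
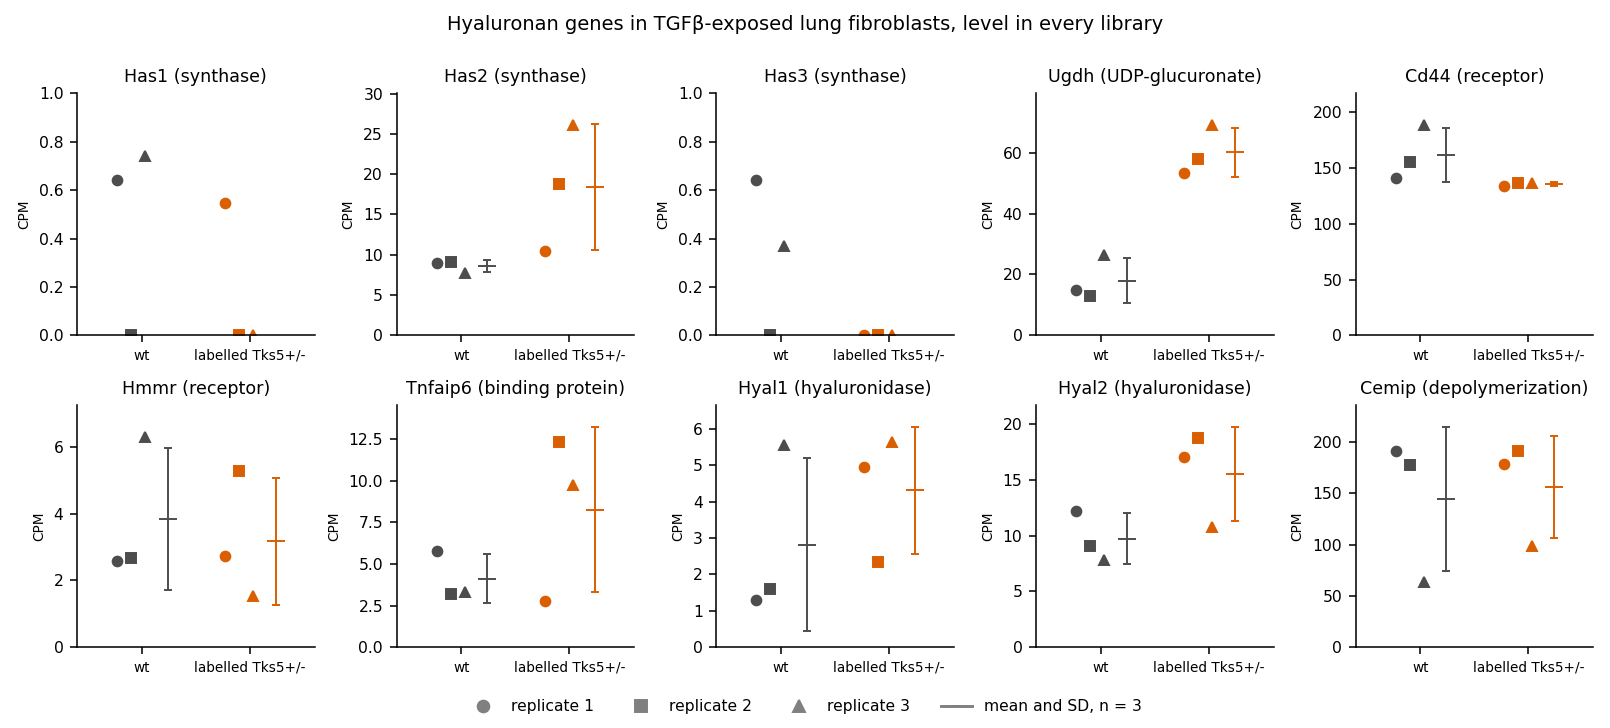
Level of each of the 10 hyaluronan genes in CPM (y axis, from 0, a scale of its own in each panel) in the 3 wt libraries and the 3 labelled Tks5+/-. Symbols are replicates and bars the mean and SD of 3 libraries, left out for Has1 and Has3, which had at most 2 counts in any library. The Ugdh points lie far apart between genotypes, those of Has2 lie just apart (9.10 against 10.4 CPM at the nearest), and in Cemip the replicate 3 library is the lowest of both genotypes.

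The promoters of the members were read from RefSeq (GRCm38.p6, 250 bases before to 50 after each start), where 8 of the 10 had an entry. They were searched on both strands for the GC box bound by Sp1-like factors (GGGCGG), the TATA box (TATAAA) and the AP-1 site (TGANTCA), which do not overlap one another in letters. Of 27025 genes, 35.9% held a GC box in this window, 14.2% a TATA box and 7.93% an AP-1 site. Ugdh, the member with the largest change, had 3 GC boxes and neither other motif. Cemip and Hyal1 had 2 GC boxes each, Cd44, Hmmr, Hyal2 and Tnfaip6 had 1, and Has1 had none, while Cemip alone had a TATA box and Tnfaip6 alone an AP-1 site. The Ugdh boxes ahead of the RefSeq start lie 144 and 72 bases before it, the second in the opposite orientation. Their windows are chr5:65435971-65435996 and chr5:65435899-65435924 on the reverse strand. In the annotation whose coordinates are given below, Ugdh starts further upstream, at 65435949, so the second box lies inside the gene. The first and second Ugdh boxes are shown with the AP-1 site of Tnfaip6, the motif in capitals. The Tnfaip6 site lies 142 bases before its RefSeq start, at chr2:52037961-52037987 on the forward strand. They were chosen because Ugdh had the largest change of the tested members and Tnfaip6 was the one member with an AP-1 match.
Ugdh, first GC box: ctgcgggcgaGGGCGGagcccgtgac
Ugdh, second GC box: agttcggatcCCGCCCcctctgccgc
Tnfaip6, AP-1 site: ccaatgcaaaTGAGTCAgagggcttgc
These matches describe the letters only, and no binding was measured.

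Ugdh (UDP-glucose 6-dehydrogenase, ENSMUSG00000029201) is a reverse-strand gene of chromosome 5 (GRCm38, 65413221 to 65435949). By replicate there were 23, 24 and 71 counts for wt against 97, 99 and 135 for the label Tks5+/-. Every library labelled Tks5+/- was above every wt library, and wt replicate 3 stood above the other wt libraries. The level went from 18.0 ± 7.28 CPM (SD, n = 3) to 60.1 ± 8.14 (SD, n = 3), or 1.70 in log2 fold change (SE 0.27, 95% interval 1.14 to 2.26, adjusted p = 2.80e-05). The exact two-sided permutation test of the CPM gave p = 0.1, the smallest that 3 libraries against 3 allow, while 53.8% of all tested genes likewise had levels without overlap between genotypes (26.1% higher and 27.6% lower with the label Tks5+/-). Ugdh was called higher in each of the 17 alternative fits, with log2 fold changes of 1.28 (library totals alone) to 2.14 (correction for transcript length).

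Has2 (ENSMUSG00000022367), the main hyaluronan synthase of most mesenchymal cells, is a reverse-strand gene of chromosome 15 (GRCm38, 56665627 to 56694539). Its replicates held, in order, 14, 17 and 21 counts for wt against 19, 32 and 51 for the label Tks5+/-. In CPM these came to 9.01, 9.10 and 7.79 in wt and to 10.4, 18.7 and 26.1 in the others. The wt libraries were close together and all lay below the lowest library labelled Tks5+/-, as for 26.1% of tested genes. That lowest library was close to them, while the others with its label were higher. The means were 8.63 ± 0.733 CPM (SD, n = 3) and 18.4 ± 7.84 (SD, n = 3), or 1.10 in log2 fold change (SE 0.36, 95% interval 0.36 to 1.85, adjusted p = 0.0160) with an exact two-sided permutation p of 0.1. The call was lost without wt replicate 3 (log2 fold change 1.02, adjusted p = 0.0562), without replicate 3 labelled Tks5+/- (0.80, adjusted p = 0.121) and with library totals alone (0.67, adjusted p = 0.125). Over all alternatives the adjusted p ran from 0.00256 to 0.125, and the log2 fold change was above 0 in all 17. Has2os, the antisense RNA that overlaps the start of Has2, had at most 2 counts in any library.

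The other synthases were close to absent from the reads. Has1 (chromosome 17, 17843323 to 17855205) had 4 counts in the 6 libraries together and Has3 (chromosome 8, 106870242 to 106884566) had 2. No library held more than 2 counts of Has1 or 1 of Has3, and 3 counts, which a count of 0 still allows, came to 1.11 to 1.93 CPM. Neither was tested, and no fold change is given. The end of Has3 overlaps that of Chtf8 on the opposite strand, which had 51 to 203 counts. Has2, with 154 counts over the same libraries, was the only synthase that could be tested.

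Among the binding genes, Cd44 (chromosome 2, 102811141 to 102901665), the main cell surface receptor of hyaluronan, had the most counts of the 10 genes. By replicate there were 219, 291 and 509 counts for wt against 244, 233 and 267 for the label Tks5+/-. The wt levels spread from 141 to 189 CPM and lay above those labelled Tks5+/-, which lay within 134 to 137 CPM. No wt level lay inside the other range (p = 0.1 by exact two-sided permutation), as for the 27.6% of tested genes that lay lower without overlap, but the log2 fold change of -0.26 (SE 0.20, 95% interval -0.67 to 0.16, adjusted p = 0.307) was not past the threshold. Library totals alone (-0.68, adjusted p = 0.00843) and limma on the normalized table (-0.52, adjusted p = 0.0455) both called it lower, whereas correcting for transcript length gave 0.14 (adjusted p = 0.598). Cd44 is also made by leukocytes, and the wt library with the highest Cd44 level, replicate 3, was the one richest in macrophage markers. The 16 markers summed to 375, 334 and 2036 CPM in wt replicates 1, 2 and 3 and to 135 to 150 CPM in the libraries labelled Tks5+/-. Most of each sum was Lyz2 (192, 180 and 1298.5 CPM in these wt replicates, 76.3 to 106 in the others), which was not called (adjusted p = 0.110). In the libraries labelled Tks5+/-, Adgre1, Ptprc and Marco were at 0, whereas C1qa, C1qc and Cd14 had counts in each and overlapped wt. Of the 11 markers tested, 5 were lower and none higher, beside 22.1% of all tested genes lower. Without wt replicate 3 the log2 fold change of Cd44 was -0.13 (adjusted p = 0.670); the part of macrophage RNA in the Cd44 levels was not tested.

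Hmmr (chromosome 11, 40701395 to 40733422) encodes RHAMM, a hyaluronan binding protein that also sits on the mitotic spindle. In replicate order it had 4, 5 and 17 counts for wt against 5, 9 and 3 for the label Tks5+/-, was not kept for the test, and overlapped between genotypes (exact two-sided permutation test of the CPM, p = 0.7). The 20 cell cycle genes chosen for comparison summed to 481 to 677 CPM in wt and to 987 to 1347 CPM in the libraries labelled Tks5+/-. Birc5 (means of 63.2 CPM in wt and 294) and Cdk1 (25.85 and 221) rose most within that sum. Of 14 tested, 9 were higher and 1, Cdc20, lower, beside 22.8% and 22.1% of all tested genes. Mki67, Top2a, Ccna2 and Tpx2 were not called (-0.49, -0.22, -0.0075 and 0.40 in log2 fold change). No difference was detectable for Hmmr at this depth.

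Tnfaip6 (chromosome 2, 52038009 to 52056686) encodes TSG6, a secreted link-module protein that moves heavy chains onto hyaluronan and crosslinks it. Replicates 1, 2 and 3 held 9, 6 and 9 counts for wt against 5, 21 and 19 for the label Tks5+/-. One of the latter, replicate 1, was lower in CPM than any wt library, and the other two were higher than all of them. The means of 4.11 ± 1.46 CPM (SD, n = 3) and 8.25 ± 4.94 (SD, n = 3) came to 1.03 in log2 fold change (SE 0.51, 95% interval -0.021 to 2.09, adjusted p = 0.103), which was not called. Without replicate 1 labelled Tks5+/- it was 1.50 (adjusted p = 0.0163), the only one of its 16 alternatives with a call, while with library totals alone it was 0.59 (adjusted p = 0.338).

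Of the 10 genes, none of those that break hyaluronan down passed the test. Hyal2 (chromosome 9, 107567945 to 107572779), the hyaluronidase anchored at the cell surface, had, by replicate, 19, 17 and 21 counts for wt against 31, 32 and 21 for the label Tks5+/-. Mean levels were 9.70 ± 2.28 CPM (SD, n = 3) for wt and 15.5 ± 4.20 (SD, n = 3) for the label Tks5+/-, or 0.69 in log2 fold change (SE 0.35, 95% interval -0.033 to 1.42, adjusted p = 0.113), and the genotypes overlapped through replicate 3 labelled Tks5+/-. It was called higher without that library (0.94, adjusted p = 0.0479), after correcting for GC content (0.86, adjusted p = 0.0492) and by limma on the normalized table (0.84, adjusted p = 0.0480). With library totals alone it was 0.27 (adjusted p = 0.541).
Hyal1 (chromosome 9, 107576927 to 107581710), the lysosomal hyaluronidase, lies beside it. Its replicates held, in order, 2, 3 and 15 counts for wt against 9, 4 and 11 for the label Tks5+/-, and it was not tested. Its end overlaps Naa80, with 14 to 31 counts, and Hyal3, with at most 4, on the same strand, so its few reads are not certain to be its own.

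Cemip (chromosome 7, 83932857 to 84086502) encodes a secreted protein needed for hyaluronan depolymerization in skin and synovial fibroblasts. By replicate there were 297, 332 and 171 counts for wt against 326, 326 and 193 for the label Tks5+/-. Its levels in CPM were 191, 178 and 63.4 in wt and 179, 191 and 98.8 in the others, so that replicate 3 was low in each genotype while the remaining libraries lay close together. The log2 fold change was 0.13 (SE 0.42, 95% interval -0.83 to 1.08, adjusted p = 0.831), an interval that reaches well to both sides of 0. The sign turned with library totals alone (-0.29), without wt replicate 3 (-0.25), by limma on the normalized table (-0.053) and without replicate 2 labelled Tks5+/- (-0.020), and no alternative called it. With 1645 counts in all, Cemip was among the deepest members, and its interval was nonetheless wide.

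**Figure D2:**
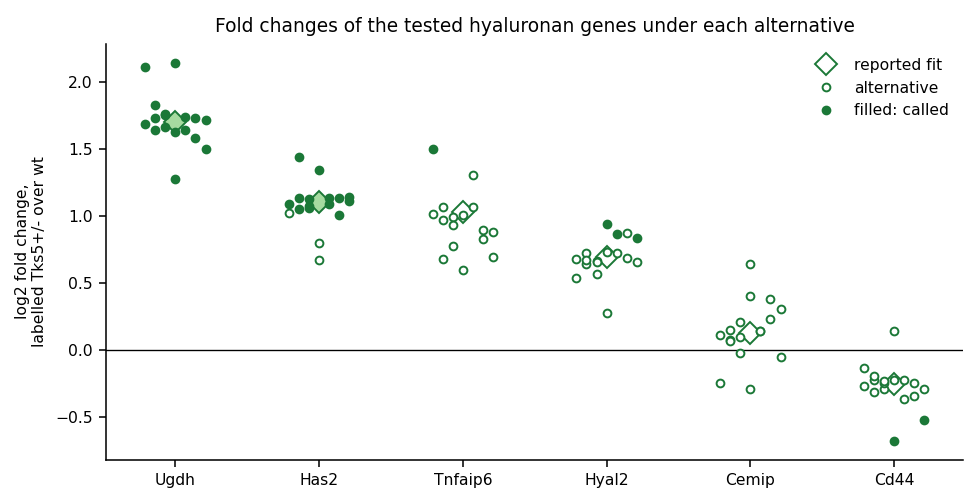
Log2 fold change (y axis) of the 6 tested hyaluronan genes under the reported fit (diamond) and each alternative (circles, filled where called, spread sideways only for legibility). All circles of Ugdh are filled and lie from 1.28 to 2.14, whereas those of Has2 include 3 without a call and those of Cemip lie on both sides of 0.

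Hyaluronan needs both UDP-sugars, and 9 further genes of their supply were examined, all of them tested. Of these, 2 were higher (Gnpnat1 and Uap1) and 2 lower (Gfpt2 and Uap1l1) in the libraries labelled Tks5+/-. Over all tested genes, 22.8% were higher and 22.1% lower. The median log2 fold change of the 9 genes was -0.13. Gfpt1 and Gfpt2 make glucosamine phosphate from fructose phosphate and glutamine, the step that sets the rate of the pathway. Gfpt2 had, by replicate, 126, 173 and 166 counts for wt against 89, 57 and 69 for the label Tks5+/-, and went from 78.4 ± 15.7 CPM (SD, n = 3) to 39.2 ± 8.43 (SD, n = 3), or -0.99 in log2 fold change (SE 0.23, adjusted p = 0.00150). All 3 libraries labelled Tks5+/- were below all wt libraries, as for 27.6% of tested genes. Gfpt1 was at -0.53 (SE 0.22, adjusted p = 0.0554) and not called, although its levels did not overlap, and 5 of 17 alternatives called it lower.

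The acetyltransferase of the next step, Gnpnat1, had, by replicate, 29, 35 and 60 counts for wt against 129, 113 and 150 for the label Tks5+/-. Mean levels went from 19.9 ± 2.05 CPM (SD, n = 3) to 71.2 ± 5.33 (SD, n = 3), or 1.83 in log2 fold change (SE 0.23, adjusted p = 1.77e-06), and the genotypes lay far apart. The mutase gene Pgm3 was not called (0.48, adjusted p = 0.202). Uap1, which joins the sugar to UDP, went from 22.7 ± 5.07 CPM (SD, n = 3) to 40.7 ± 7.73 (SD, n = 3), with 0.84 (SE 0.26, adjusted p = 0.0115). The Uap1 call did not hold when wt replicate 2 or replicate 3 labelled Tks5+/- was left out, nor with library totals alone, and its adjusted p over the alternatives reached 0.199. Its homologue Uap1l1 fell from 117 ± 24.5 CPM (SD, n = 3) to 38.5 ± 9.0 (SD, n = 3), with -1.59 (SE 0.24, adjusted p = 1.25e-05). Gfpt2, Gnpnat1 and Uap1l1 kept their calls in all 17 alternatives. Ugp2, which makes the UDP-glucose that Ugdh uses, was at -0.0083 (SE 0.22, 95% interval -0.47 to 0.46).

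**Figure D3:**
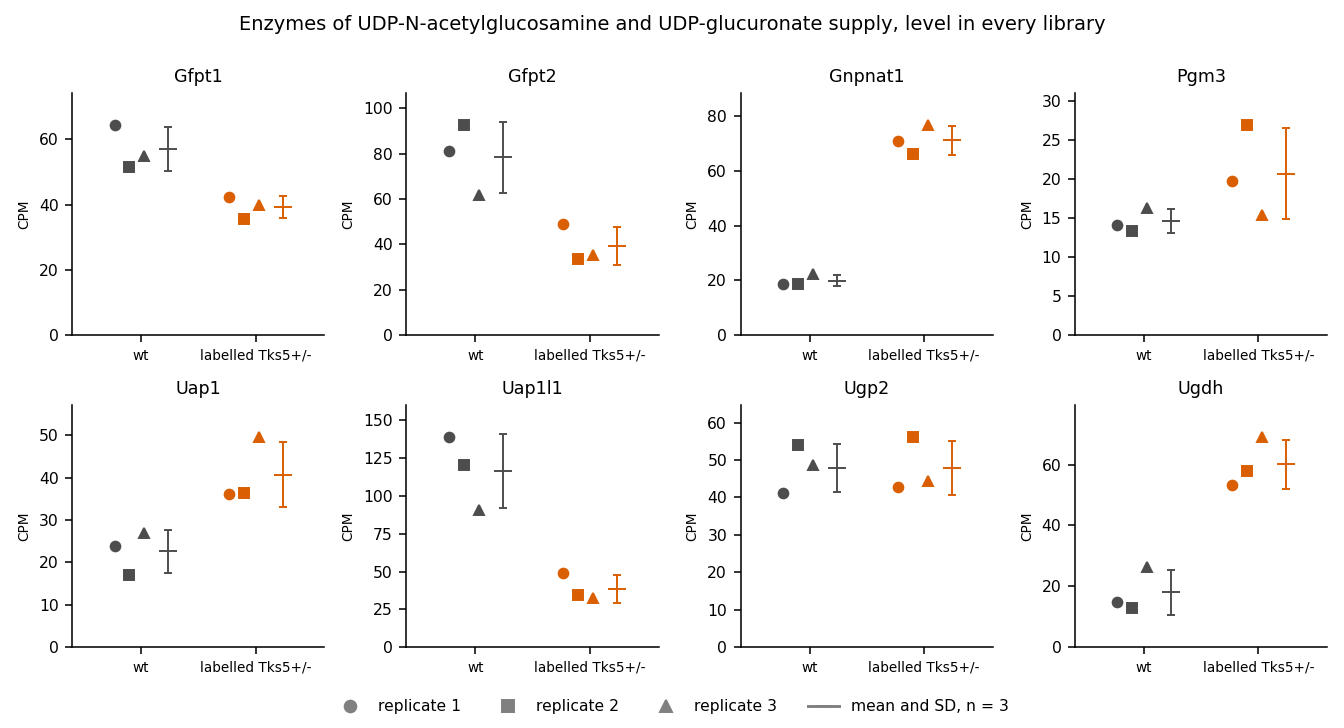
Level in CPM (y axis, from 0, a scale of its own in each panel) of 7 enzymes of UDP-sugar supply and of Ugdh in the 3 wt libraries and the 3 labelled Tks5+/-, with replicates as symbols and mean and SD as bars (n = 3). Gnpnat1, Uap1 and Ugdh are higher and Gfpt2 and Uap1l1 lower in the libraries labelled Tks5+/-, with no overlap, as for 53.8% of all tested genes. The Ugp2 means are 47.9 and 47.8 CPM.

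Of 21 further genes for hyaluronan binding proteins, 14 had a count in any library and 5 were tested. None was higher and 2 were lower (22.8% and 22.1% over all tested genes), with a median log2 fold change of -0.47 for the 5. They were Layn (-0.80, SE 0.31, adjusted p = 0.0390), which encodes the membrane receptor layilin, and Habp4 (-0.58, SE 0.23, adjusted p = 0.0416), whose product is mainly intracellular. Each call held in 9 of 17 alternatives, and the adjusted p reached 0.151 for Layn and 0.369 for Habp4. Layn was called with wt replicate 2 left out but with no other single library left out, and Habp4 only without wt replicate 3 or replicate 1 labelled Tks5+/-. Vcan (-0.35, adjusted p = 0.337), the versican core protein that packs hyaluronan in provisional matrix, Ptx3 (-0.47, adjusted p = 0.146), which joins Tnfaip6 product and heavy chains in such a matrix, and Stab1 (-0.34, adjusted p = 0.199) were not called. The heavy chain genes Itih1, Itih4 and Itih5 and the link protein genes Hapln1 and Hapln2 had no count in any library.
Of 10 symbols for other degradation genes, 9 matched a listed gene and 4 were tested. Of these 4, Hexa was lower and none was higher (22.1% and 22.8% over all tested genes). Hexa encodes a subunit of the lysosomal hexosaminidase that trims N-acetylglucosamine from chain ends. In replicate order it had 403, 388 and 539 counts for wt against 205, 185 and 196 for the label Tks5+/-, going from 222 ± 32.4 CPM (SD, n = 3) to 107 ± 6.19 (SD, n = 3), or -1.05 in log2 fold change (SE 0.20, adjusted p = 2.26e-04), called in all 17 alternatives. The glucuronidase gene Gusb was at -0.25 (adjusted p = 0.402) and the Cemip homologue Cemip2 at -0.46 (adjusted p = 0.233). Hyal4, Hyal5, Hyal6 and Spam1 had no count. Over the 3 lists, 7 of 18 tested genes were called, beside 44.9% of all genes.

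**Figure D4:**
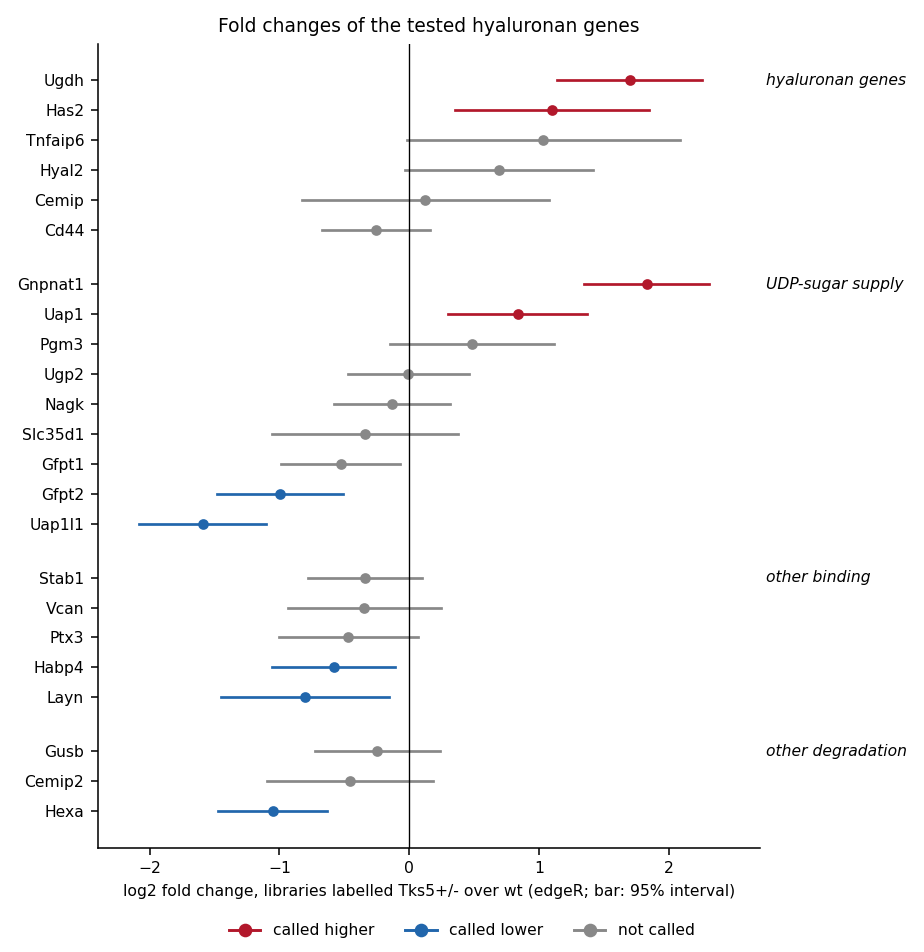
Log2 fold change (x axis, libraries labelled Tks5+/- over wt) with its 95% interval for the 6 tested hyaluronan genes and 17 of the 18 tested genes of the wider lists, coloured by call. Higher calls are Ugdh, Has2, Gnpnat1 and Uap1, lower calls are Gfpt2, Uap1l1, Habp4, Layn and Hexa, and the interval of Cemip is the widest but 1, after Tnfaip6.

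Summed markers of mesothelial, endothelial and smooth muscle cells did not overlap between the genotypes, whereas those of epithelial cells did. Of all single genes tested, 53.8% likewise had levels without overlap. Mesothelial cells also make hyaluronan. Their 9 markers summed to 41.7 to 72.3 CPM in wt and to 5.63 to 14.3 CPM in the libraries labelled Tks5+/-, with 3 of 3 tested genes lower. The calls in this paragraph stand beside 22.8% of all tested genes higher and 22.1% lower. The 10 endothelial markers summed to 118 to 151 and 45.6 to 60.9 CPM (4 of 5 tested lower). The 11 epithelial markers, of which 6 were at 0, summed to 18.2 to 37.4 and 29.2 to 62.0 CPM (1 of 2 tested higher, 1 lower). In the libraries labelled Tks5+/-, nearly all of the epithelial sum was Ager, which was called higher (means of 11.8 CPM in wt and 42.3). Cldn4 was called lower (means of 13.8 CPM in wt and 0.585). The 8 smooth muscle markers summed to 4969 to 5901 and 6452 to 7366 CPM (of 7 tested, 3 higher and 2 lower). Acta2, the largest part of each sum, was not called (-0.11 in log2 fold change, adjusted p = 0.710). Tagln, 1 of the higher genes, had means of 478 CPM in wt and 1891 in the others (1.99, adjusted p = 1.73e-06). The part of these cells and of cycling cells in the hyaluronan genes was not tested.

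The genes whose levels followed those of single members most closely across the 6 libraries were taken by Pearson's r of log2(CPM + 1), as a description over libraries that share depth and genotype. For Has2 they were Smim20 (r = 0.994), BC005624 (0.993) and Surf2 (0.988), none of them called. For Cd44 they were Lipa (0.991), Pkmyt1 (0.989) and Arrb2 (0.987), each highest in wt replicate 3 and each called lower, with log2 fold changes of -0.92, -1.19 and -1.58. For Cemip they were Gm19726 (0.975), Sgcb (0.975) and Lrrc8d (0.970), each lowest in the replicate 3 library of both genotypes and none called.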

How the data were processed

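RNA of 3 wt and 3 TKS5 KO-labelled LF cultures was sequenced with Quant-Seq on an Ion Proton. After trimming (Trim Galore) and alignment to GRCm38 (HISAT2, then Bowtie2), the authors used metaseqR2 to count reads on UTR regions of at least 300 bases with a 50-base flank, and deposited raw counts per gene. The authors' normalized table, used as a score in 1 alternative, was made with EDASeq and rounded to whole numbers, and its 6 columns hold the same sorted values. Whether counting kept to strand is not given in the sources used here.

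Symbols, coordinates and transcripts came from GENCODE M21 (GRCm38), which matched 55104 of 55364 genes. The robust quasi-likelihood F test of edgeR 4.0.16 (R 4.3.3) was run on counts after filterByExpr and TMM, with Benjamini-Hochberg adjustment over 10346 genes. Calls needed an adjusted p below 0.05 and a change of 1.2-fold or more. Alternatives used DESeq2 1.42.0, limma 3.58.1 (pseudocount 1 on the normalized table), other scalings and filters, a replicate block, loess corrections for transcript length and GC content (span 0.5, prior count 2), and each library left out. The fit was tested on simulated data. Replicates of a genotype differed by more than sampling noise (chi-square per degree of freedom 3.70 to 9.61). A count of 0 allows up to 3 counts, and such limits cover counting error only.

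The members and lists were chosen with earlier results of these data known. By the naming rule, the text names all members, Sh3pxd2a, the called genes of 3 wider lists (at most 6 each by adjusted p), the marker genes with most counts in each list (of these, S100a4, Vim, Col1a1, Lyz2, Ager, Cldn4, Acta2, Tagln, Birc5, Cdk1 and Cdc20 are named here) and the 3 genes most like the deepest synthase, receptor and hyaluronidase. The other genes named (list members not called or at 0, overlapping genes) were chosen after their values were seen. Figures were made with matplotlib 3.10.9. The authors' combination of 9 tests was not run, and 1 tested gene of the wider lists is counted but not reported here by itself.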

Additional observations from a re-analysis of the deposited data

How the results depend on the processing

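Of the 6 tested hyaluronan genes, 2 were called in the reported fit, beside 4642 of 10346 genes. With each library left out in turn, 1 to 3 were called (1, Ugdh, without wt replicate 3), beside 3853 to 4595 of all genes. On the authors' normalized counts with limma, 4 were called (Cd44, Has2, Hyal2 and Ugdh), beside 4431 of 10346 genes. The wider lists gave 7 calls of 18 tested. With each library left out they gave 4 to 6 (4 without replicate 3 labelled Tks5+/-, beside 4139 of 10888 genes). With library totals alone they gave 13 of 18, of which 12 were lower, beside 5306 of 10346 genes, of which 3944 were lower. Over all genes the count stayed within 3705 to 5306. Log2 fold changes turned sign for Cd44 with the correction for transcript length (0.14), and for Cemip with library totals alone (-0.29), on the normalized counts (-0.053), and in a range of -0.25 to 0.41 when libraries were left out singly (-0.25 without wt replicate 3, -0.020 without replicate 2 labelled Tks5+/-). In the wider lists, correction for transcript length also turned Vcan (0.42), Stab1 (0.22) and Cemip2 (0.026), and outside them library totals alone turned Sh3pxd2a (-0.13); none of these had a call in the reported fit. Cemip2 was at 0.084 without wt replicate 1, and Ugp2, near 0, ran from -0.43 to 0.12. The sign of Ugdh, Has2, Tnfaip6 and Hyal2 was the same in every alternative run for them; Tnfaip6 could not be fitted with at least 10 counts required in every library. The cause of these changes was not tested. With the replicate number as a block, the same 2 members and 4668 genes were called; same-numbered libraries did not deviate together (r = -0.001, -0.064 and 0.082 across genes), and wt replicate 1 correlated best with replicate 2 labelled Tks5+/- (0.097), so the numbers were not taken as pairs. Over the 6 libraries Has2 had 154 counts, Hyal2 141 and Tnfaip6 69; the part of depth in the missing calls was not tested.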
